A study of Homo sapiens with 12 samples.

Results

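Integrin subunit genes of the epithelial type were followed across 4 lines of the human MCF10 breast series. The 10 genes were taken by symbol from the deposited table of 59427 gene symbols: the α subunit genes ITGA2, ITGA3, ITGA5, ITGA6 and ITGAV, and the β subunit genes ITGB1, ITGB4, ITGB5, ITGB6 and ITGB8. All 10 were found, and all 10 reached 1 TPM (a relative transcript level corrected for gene length) in at least 1 line, as 13108 genes did. MCF10A is an immortalised, non-tumorigenic breast epithelial line. The derived lines are MCF10AT1, transformed by HRAS G12V, MCF10DCIS, which the submitters take for the ductal carcinoma in situ stage, and MCF10CA1a, which they call metastatic. All 3 are HRAS-derived. All 4 lines were grown in DMEM:F12 with horse serum, insulin, EGF, cholera toxin, hydrocortisone, antibiotics and glutamine. Total RNA was sequenced from 3 libraries per line, 12 in all, and the values are the authors' mean TPM of each line. Each stage is represented by 1 line, and no value has an error, so no difference could be weighed by the spread of its libraries and there are no p-values. Depth is unknown, since TPM keeps no count of reads.

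Integrins are receptors made of 1 α and 1 β subunit that bind the extracellular matrix and connect it to the cytoskeleton. The β1 subunit pairs with many α subunits, whereas β4 pairs with α6 alone and anchors basal epithelial cells to laminin at hemidesmosomes, the junctions that hold on to keratin filaments. Paired with β1, α3 and α6 are laminin receptors, α2 is a collagen receptor and α5 is the classical fibronectin receptor. The αv subunit pairs with β5, a vitronectin receptor, and with β6 and β8, which bind the latent form of the cytokine TGF-beta and can release its activity. The αv subunit can pair with β1 as well.

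Differences are log2(TPM + 1) of the derived line minus that of MCF10A, and a gene is called higher or lower when the difference is at least 1, a 2-fold change. This rule of size stands in for a test. The comparisons with MCF10A share its column and are not independent of each other. Structural and small non-coding RNAs held 57.6% of the MCF10A total, 60.0% for MCF10AT1, 66.0% for MCF10DCIS and 59.9% for MCF10CA1a, which moves every other gene's TPM. The median difference of the 13108 genes from MCF10A was -0.066 for MCF10AT1, -0.38 for MCF10DCIS and -0.074 for MCF10CA1a. Single values of MCF10DCIS are therefore to be read against -0.38. On TPM recomputed without those RNAs, ribosomal protein genes and mitochondrially encoded genes (rescaled TPM), the medians were 0.040, -0.094 and 0.046. HRAS, which checks the labels, was at 50.8 TPM in MCF10A, at 126 in MCF10AT1, at 276 in MCF10DCIS and at 312 in MCF10CA1a. Of 6 epithelial markers, 6 reached 1 TPM in MCF10A and 5 in each derived line, where KRT19 lay below it. Their summed level was 1572 TPM in MCF10AT1, 1834 in MCF10DCIS and 1964 in MCF10CA1a, against 2717 in MCF10A. By the rule of size 0 of the 6 were higher in any derived line, and 4 were lower in MCF10AT1, 3 in MCF10DCIS (2 on rescaled TPM) and 3 in MCF10CA1a, where 5.87%, 14.8% and 7.14% of all genes were lower. CDH1, the E-cadherin gene, had differences of -2.75, -1.79 and -1.51. Fibroblast markers summed to between 0.820 and 3.51 TPM over 6 genes, endothelial markers to between 0.949 and 4.76 TPM over 5 genes, and leukocyte markers to between 4.56 and 12 TPM over 6 genes.

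The laminin receptor genes were higher in the carcinoma lines, the αv partners ITGB6 and ITGB8 were lower in every derived line, the α2 gene stood out in MCF10CA1a, and the α5 gene was higher in MCF10AT1 and lower in MCF10CA1a. ITGB1, ITGAV and ITGB5 varied least. ITGB1 had the highest level of the 10 in MCF10A, ITGA3 in MCF10AT1, and ITGB4 in both MCF10DCIS and MCF10CA1a. The lowest of the 10 was ITGA2 in MCF10A and MCF10AT1, ITGAV in MCF10DCIS and ITGB8 in MCF10CA1a. With no spread available, neighbours in any such order cannot be said to differ.

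**Figure D1:**
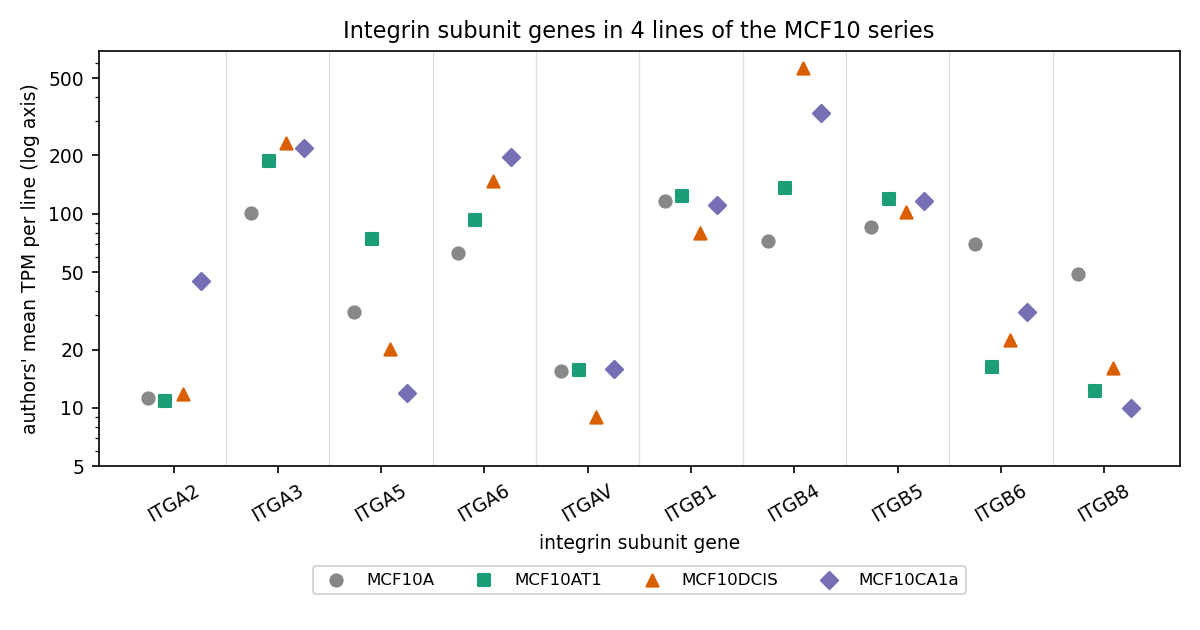
Authors' mean TPM per line on a log axis for each of the 10 integrin subunit genes, with 1 point per line and no error bars because only means were used. ITGB4 spans 72.9 to 563 TPM with MCF10DCIS at the top, whereas the 4 points of ITGB5 lie between 85.7 and 119 TPM.

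ITGB4, the β subunit of the hemidesmosome (chromosome 17, 75721328 to 75757818, plus strand; positions here and below are from GENCODE release 29 on GRCh38), was at 72.9 TPM in MCF10A, at 136 in MCF10AT1, at 563 in MCF10DCIS and at 330 in MCF10CA1a. It had the widest range of the 10 genes, 2.93 log2 units. MCF10DCIS was 7.73-fold and MCF10CA1a 4.53-fold above MCF10A, with log2 differences of 2.93 and 2.16. In such bulk RNA, fewer cells that express a gene and less of its RNA per cell cannot be told apart. In MCF10DCIS that difference was above those of 99.7% of all genes. MCF10AT1 was 1.87-fold above MCF10A with a difference of 0.89, below the rule of size, and 1.03 on rescaled TPM, above it. ITGB4 was also higher in MCF10DCIS than in MCF10AT1, by 2.04, and higher in MCF10CA1a than in MCF10AT1, by 1.27. Between MCF10CA1a and MCF10DCIS the difference was -0.77, which reached -1.14 with median-of-ratios scaling.

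ITGA6, which encodes the sole α partner of β4 (chromosome 2, 172427354 to 172506282, plus strand), was at 62.7 TPM in MCF10A, at 93.1 in MCF10AT1, at 147 in MCF10DCIS and at 196 in MCF10CA1a. The level was thus greater at each stage, a sequence that the 3 other scalings kept. MCF10AT1 differed from MCF10A by 0.56, MCF10DCIS by 1.22 and MCF10CA1a by 1.63, which passed the rule of size in the carcinoma lines. MCF10CA1a was above MCF10AT1 by 1.06. ITGA3, the α subunit of the laminin receptor α3β1 (chromosome 17, 50055968 to 50090481, plus strand), was at 102 TPM in MCF10A, at 188 in MCF10AT1, at 231 in MCF10DCIS and at 220 in MCF10CA1a. All derived lines lay above MCF10A, with differences of 0.88, 1.18 and 1.10, and MCF10AT1 crossed the rule of size on rescaled TPM at 1.02. None of the 3 pairs among derived lines reached the rule of size for ITGA3.

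The level of ITGB4 relative to that of its partner differed by line. The ratio of ITGB4 to ITGA6 TPM was at 1.16 in MCF10A, at 1.46 in MCF10AT1, at 3.83 in MCF10DCIS and at 1.69 in MCF10CA1a. Such a ratio within a line is not affected when that line's column is multiplied by a common factor. Quantile normalization, which replaces values by rank, can change it. ITGB4 relative to ITGB1, the other β subunit that can take up α6, was at 0.623 in MCF10A, at 1.10 in MCF10AT1, at 7.06 in MCF10DCIS and at 2.99 in MCF10CA1a. In MCF10A the β1 gene was thus the more abundant, and in the carcinoma lines the β4 gene. ITGB4 held 18.5% of the summed TPM of the 5 β genes for MCF10A, 33.3% for MCF10AT1, 71.8% for MCF10DCIS and 55.2% for MCF10CA1a.

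The genes around α6β4 did not all share its pattern. LAMA3 and LAMB3 encode chains of the laminin of the epithelial basement membrane that α3β1 and α6β4 bind. LAMB3 was at 132 TPM in MCF10A, at 105 in MCF10AT1, at 205 in MCF10DCIS and at 261 in MCF10CA1a, and LAMA3 lay between 71.1 and 117 TPM. Neither passed the rule of size against MCF10A as deposited, where LAMB3 in MCF10CA1a was at 0.97, and at 1.12 on rescaled TPM it did. Of the 4 hemidesmosome partner genes, 0 were higher or lower in MCF10AT1 and in MCF10DCIS, and 1 was higher and 0 lower in MCF10CA1a, where 5.97% of all genes were higher and 7.14% lower. The all-gene shares were 3.39% (higher) and 5.87% (lower) for MCF10AT1, and 3.56% and 14.8% for MCF10DCIS. The partners' median differences were 0.12, 0.010 and 0.018, beside -0.066, -0.38 and -0.074 over all genes. On rescaled TPM the partners' medians were 0.25, 0.38 and 0.16, beside all-gene medians of 0.040, -0.094 and 0.046. The gene higher in MCF10CA1a was COL17A1, a transmembrane collagen of hemidesmosomes, at 91.2 TPM there against 35.2 in MCF10A, a difference of 1.35. In MCF10DCIS it was 56.4 TPM, a difference of 0.66 that was 1.04 on rescaled TPM. PLEC, the linker from β4 to keratin filaments, lay between 146 and 164 TPM in the 4 lines, and DST between 31.4 and 42.4 TPM. The tetraspanin gene CD151, whose product binds laminin-binding integrins, was at 240 TPM in MCF10A, at 187 in MCF10AT1, at 147 in MCF10DCIS and at 160 in MCF10CA1a, with no difference past the rule of size.

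**Figure D2:**
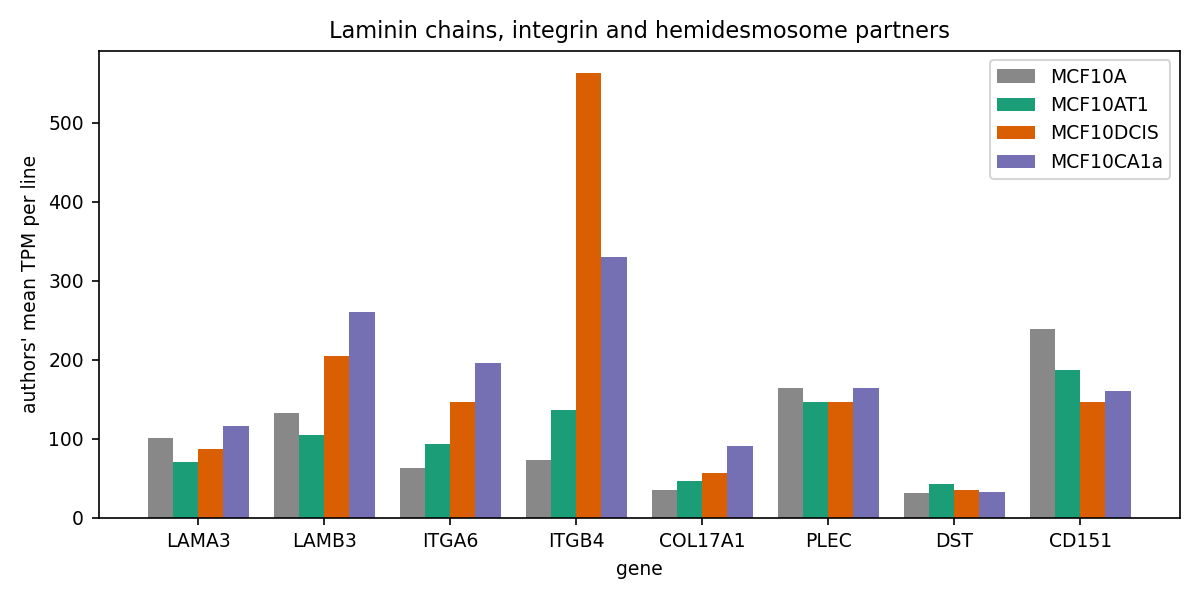
Authors' mean TPM per line (linear axis from 0, bars in the order MCF10A, MCF10AT1, MCF10DCIS, MCF10CA1a, no error bars) for the laminin chain genes LAMA3 and LAMB3, for ITGA6 and ITGB4, and for 4 hemidesmosome partners. The ITGB4 bar of MCF10DCIS, at 563 TPM, is the tallest, while PLEC stays between 146 and 164 TPM.

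ITGA2, the α subunit of the collagen receptor α2β1 (chromosome 5, 52989326 to 53094779, plus strand), was at 11.3 TPM in MCF10A, at 10.9 in MCF10AT1, at 11.8 in MCF10DCIS and at 44.8 in MCF10CA1a. The first 3 lines thus lay close together and MCF10CA1a was 3.97-fold above MCF10A. The difference of MCF10CA1a was 1.90 from MCF10A, 1.94 from MCF10AT1 and 1.84 from MCF10DCIS, and it passed the rule of size against each on all 4 scales. The difference of MCF10AT1 from MCF10A was -0.046, and its sign turned under the 3 other scalings.

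ITGA5, the α subunit of the fibronectin receptor α5β1 (chromosome 12, 54395261 to 54419460, minus strand), was at 31.4 TPM in MCF10A, at 73.9 in MCF10AT1, at 20.2 in MCF10DCIS and at 11.9 in MCF10CA1a. It was higher in MCF10AT1 by 1.21 and lower in MCF10CA1a by the rule of size, with a difference of -1.33. In MCF10DCIS the difference of -0.61 did not reach the rule. ITGA5 was lower in MCF10DCIS than in MCF10AT1, at -1.82, and lower in MCF10CA1a than in MCF10AT1, at -2.54. Its ligand gene FN1 was at 5.03 TPM in MCF10A, at 303 in MCF10AT1, at 2.01 in MCF10DCIS and at 3.89 in MCF10CA1a, so both genes were at their highest in MCF10AT1. The ratio of ITGA5 to ITGA2, fibronectin against collagen receptor, was at 2.78 in MCF10A, at 6.77 in MCF10AT1, at 1.71 in MCF10DCIS and at 0.265 in MCF10CA1a.

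ITGB6, the β subunit of αvβ6 (chromosome 2, 160099666 to 160200313, minus strand), was at 69.8 TPM in MCF10A, at 16.2 in MCF10AT1, at 22.5 in MCF10DCIS and at 31.2 in MCF10CA1a. The differences from MCF10A were -2.04, -1.59 and -1.14, all past the rule of size and all past it on the 3 other scalings, where the nearest to the rule was -1.01. ITGB8, the β subunit of αvβ8 (chromosome 7, 20330702 to 20415754, plus strand), was at 48.8 TPM in MCF10A, at 12.2 in MCF10AT1, at 16.1 in MCF10DCIS and at 9.95 in MCF10CA1a. Its differences were -1.91, -1.54 and -2.19, again past the rule on every scale. For both genes MCF10A was the highest line, and the pairs among derived lines did not reach the rule of size. The derived lines ordered differently for the pair of genes: MCF10CA1a was the highest of them for ITGB6 and the lowest for ITGB8. As deposited, the epithelial markers CDH1, KRT5, KRT8 and KRT19 were also below MCF10A in every derived line, not always past the rule of size. EPCAM and KRT18 were above MCF10A in MCF10CA1a, by 0.77 and 0.35. In MCF10DCIS, KRT5, EPCAM and KRT18 were below MCF10A as deposited, by -0.26, -0.29 and -0.16. On rescaled TPM these genes were above MCF10A in that line, by 0.11, 0.080 and 0.21. The part of the markers in the differences of ITGB6 and ITGB8 was not tested.

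The bases upstream of the starts of these genes are shown because ITGB6 and ITGB8 were lower together in all derived lines while ITGA6 and ITGA2 were higher in MCF10CA1a. RefSeq promoter windows (GRCh38.p14) were found for 8 of the 10 genes at 13 starts, and the 250 bases before each start were searched on both strands. The motifs were TGANTCA (AP-1), CACCTG (the E-box bound by SNAI and ZEB repressors), GGGCGG (the GC box) and CCGGAAG (ETS). Each motif was searched for separately, so matches of different motifs may share bases. Printed are the bases before the outermost start in RefSeq and GENCODE, 5′ to 3′ on the gene's strand, with E-boxes and GC boxes in capitals.
ITGB6 (chr2:160200314-160200522, minus strand): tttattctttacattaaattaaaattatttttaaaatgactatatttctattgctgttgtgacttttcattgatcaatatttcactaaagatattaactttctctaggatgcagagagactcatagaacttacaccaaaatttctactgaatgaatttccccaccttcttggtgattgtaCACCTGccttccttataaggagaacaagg
ITGB8 (chr7:20330650-20330701, plus strand): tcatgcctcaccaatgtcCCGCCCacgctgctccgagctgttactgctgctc
ITGA6 (chr2:172427086-172427335, plus strand): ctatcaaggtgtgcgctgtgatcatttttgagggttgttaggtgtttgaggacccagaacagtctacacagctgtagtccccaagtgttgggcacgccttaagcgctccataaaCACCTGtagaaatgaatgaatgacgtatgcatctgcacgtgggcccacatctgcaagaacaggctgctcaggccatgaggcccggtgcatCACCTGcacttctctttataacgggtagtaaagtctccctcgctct
ITGA2 (chr5:52989102-52989325, plus strand): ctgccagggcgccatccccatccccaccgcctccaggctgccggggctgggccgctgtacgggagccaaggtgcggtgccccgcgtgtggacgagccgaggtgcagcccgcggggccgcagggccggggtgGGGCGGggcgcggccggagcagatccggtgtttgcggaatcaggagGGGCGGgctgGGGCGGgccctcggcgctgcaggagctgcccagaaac

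ITGB6 and ITGB8 had unlike upstream bases although both genes were lower in every derived line. The 250 bases before the ITGB6 start held 30% G and C and 0 CG dinucleotides, and 1.52% of the 35116 promoter windows of RefSeq had a lower share. The ITGB8 window held 71.2% G and C and 21 CG dinucleotides, and 81.9% of windows had a lower share. ITGB6 had an E-box 70 bases before its start and 0 GC boxes, whereas ITGB8 had 0 E-boxes and 2 GC boxes. The ITGB8 GC box 49 bases before its start lies outside the printed bases. The outermost ITGA6 start had 2 E-boxes, at 136 and 46 bases before it, and 0 GC boxes. The inner ITGA6 start lies 31 bases from a transcript start that GENCODE marks as principal, the outermost one 219 bases. The window of the inner ITGA6 start had 0 E-boxes and 3 GC boxes. ITGA2 had 76.4% G and C, 0 E-boxes and 4 GC boxes, of which 3 lie in the printed bases. Over any start, 3 of the 8 genes had an E-box, 6 a GC box, 2 an ETS motif and 0 an AP-1 motif. Of all windows, 17.5% held the E-box, 42.6% the GC box, 8.52% the ETS motif and 6.57% the AP-1 motif. These shares are per window, whereas the counts are per gene over 13 starts, so the counts and shares are not directly comparable. A match is a run of letters and says nothing of binding.

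ITGB1, ITGAV and ITGB5 had ranges under 1 log2 unit over the 4 lines and passed the rule of size in none of the 6 pairs. ITGB1, the common β subunit (chromosome 10, 32900319 to 33005792, minus strand), was at 117 TPM in MCF10A, at 124 in MCF10AT1, at 79.8 in MCF10DCIS and at 111 in MCF10CA1a. The low value in MCF10DCIS was a difference of -0.55 from MCF10A, or -0.18 on rescaled TPM, beside the all-gene medians of -0.38 and -0.094. For MCF10CA1a the difference of -0.082 was 0.061 on rescaled TPM and 0 after quantile normalization. ITGAV, the α subunit of the vitronectin and TGF-beta receptors (chromosome 2, 186590065 to 186680901, plus strand), was 15.5, 15.8, 8.94 and 15.9 TPM in the order MCF10A, MCF10AT1, MCF10DCIS, MCF10CA1a. MCF10DCIS thus stood below the others, by -0.74 from MCF10A, or -0.42 on rescaled TPM. ITGB5, the vitronectin receptor's β subunit (chromosome 3, 124761948 to 124901418, minus strand), was at 85.7 TPM in MCF10A, at 119 in MCF10AT1, at 103 in MCF10DCIS and at 116 in MCF10CA1a. All derived lines lay above MCF10A, by 0.47, 0.26 and 0.44.

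The balance of the αv partners ITGB5, ITGB6 and ITGB8 differed between lines. ITGB1, whose product can also pair with αv, is left out of their shares and sum. ITGB5 held 42.0% of the summed TPM of the 3 genes for MCF10A, 80.8% for MCF10AT1, 72.6% for MCF10DCIS and 73.9% for MCF10CA1a. ITGB6 held 34.1% for MCF10A, 11.0% for MCF10AT1, 15.9% for MCF10DCIS and 19.8% for MCF10CA1a. ITGB8 held 23.9%, 8.27%, 11.4% and 6.32% in that order of lines. The sum of these 3 genes, without ITGB1, was 13.1 times the TPM of ITGAV for MCF10A. It was 9.38 times for MCF10AT1, 15.8 times for MCF10DCIS and 9.90 times for MCF10CA1a. Of the 5 α genes, ITGA3 and ITGA6 together led in each line: ITGA3 held between 45.0% and 55.2% of the α genes' summed TPM, and ITGA6 between 24.4% and 40.1%. ITGA5 held 14.1% for MCF10A, 19.3% for MCF10AT1, 4.81% for MCF10DCIS and 2.44% for MCF10CA1a.

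**Figure D3:**
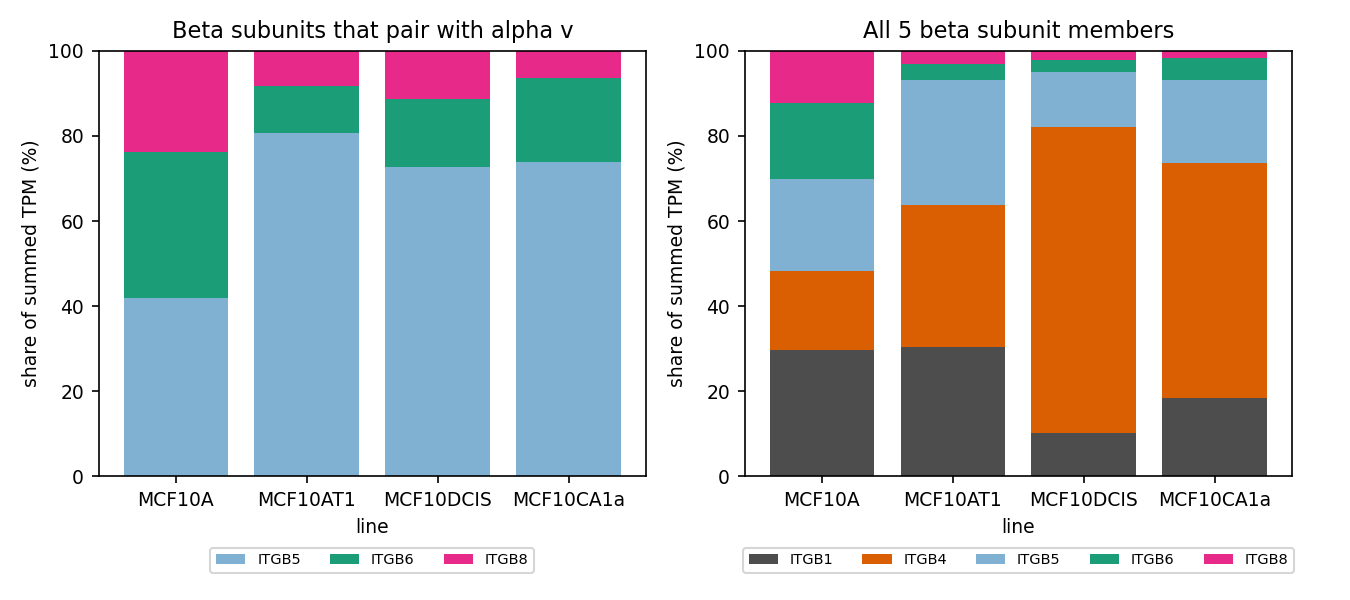
Share of summed TPM by line (stacked bars to 100%), for the αv partners ITGB5, ITGB6 and ITGB8 on the left and for all 5 β genes on the right. ITGB1, which can also pair with αv, is not in the left bars. ITGB5 takes 42.0% of the left bar in MCF10A and at least 72.6% in each derived line, and ITGB4 takes 71.8% of the right bar in MCF10DCIS.

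The 10 genes together summed to 617 TPM in MCF10A, to 790 in MCF10AT1, to 1203 in MCF10DCIS and to 1086 in MCF10CA1a. As a share of the TPM outside structural, ribosomal protein and mitochondrial RNAs that was 0.179%, 0.251%, 0.452% and 0.349%. The β genes outweighed the α genes in each line, with an α to β ratio of 0.564 for MCF10A, 0.936 for MCF10AT1, 0.535 for MCF10DCIS and 0.815 for MCF10CA1a. ITGA2, ITGA3, ITGA5 and ITGA6, which all can pair with β1, summed to 1.77 times the TPM of ITGB1 for MCF10A, 2.95 times for MCF10AT1, 5.14 times for MCF10DCIS and 4.27 times for MCF10CA1a. ITGAV, which can pair with β1 too, is not in that sum.

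In MCF10AT1 against MCF10A, 1 of the 10 genes was higher (ITGA5) and 2 were lower (ITGB6 and ITGB8), where 3.39% of all genes were higher and 5.87% lower. With rescaled TPM, ITGA3 and ITGB4 joined the higher genes, which made 3, where 5.8% of all genes were higher on that scale. The median over the 10 was 0.28. In MCF10DCIS against MCF10A, 3 were higher (ITGA3, ITGA6 and ITGB4) and 2 lower (ITGB6 and ITGB8), beside 3.56% and 14.8% of all genes, with a median of -0.24, or 0.12 on rescaled TPM. In MCF10CA1a against MCF10A, 4 were higher (ITGA2, ITGA3, ITGA6 and ITGB4) and 3 lower (ITGA5, ITGB6 and ITGB8), beside 5.97% and 7.14% of all genes, with a median of 0.23. The genes past the rule of size were thus 30% to 70% of 10, but the genes were chosen with earlier results of these data known.

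Pairs of derived lines had between 1 and 4 of the integrin genes past the rule of size. In MCF10DCIS against MCF10AT1, ITGB4 was higher and ITGA5 lower, beside 3.23% of all genes higher and 7.51% lower. In MCF10CA1a against MCF10AT1, ITGA2, ITGA6 and ITGB4 were higher and ITGA5 lower, beside 6% and 3.97%. In MCF10CA1a against MCF10DCIS, ITGA2 was higher and 0 genes were lower, beside 6.03% and 1.35%. ITGA5 and ITGB4 came close to the rule in this last pair, at -0.72 and -0.77, and passed it with median-of-ratios scaling, at -1.07 and -1.14.

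**Figure D4:**
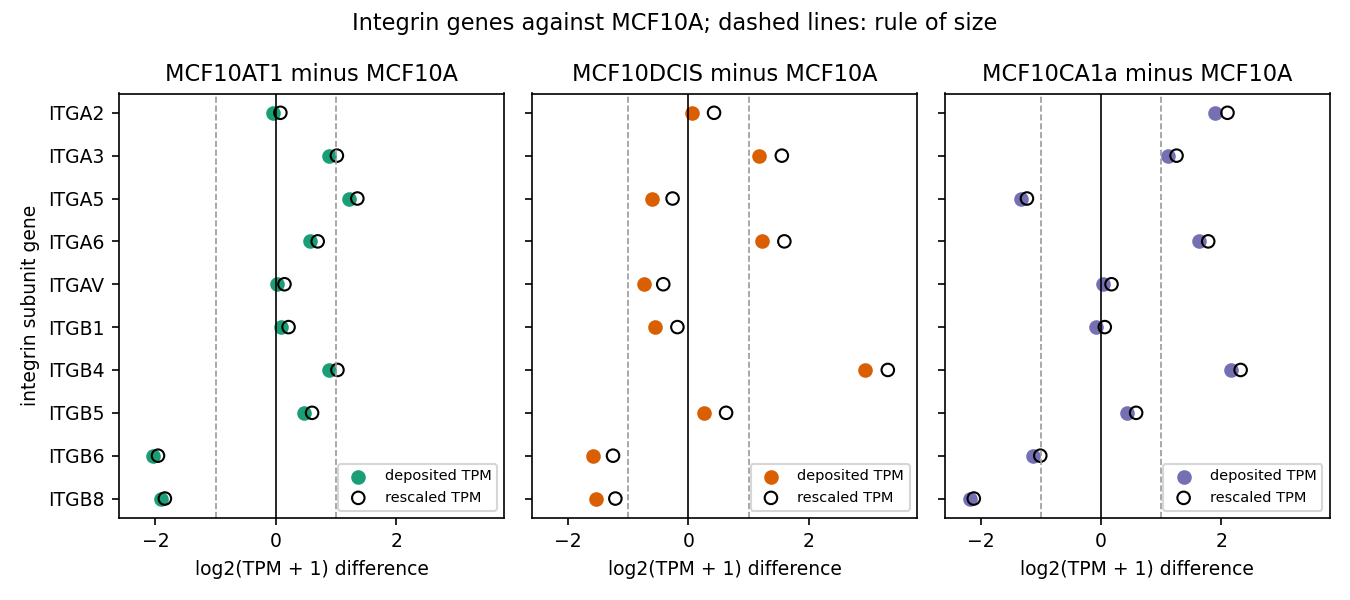
Difference of log2(TPM + 1) from MCF10A for the 10 genes in MCF10AT1, MCF10DCIS and MCF10CA1a, as deposited (filled) and on rescaled TPM (open), with dashed lines at the rule of size of 1. ITGB6 and ITGB8 lie left of the lower line in all panels, and ITGB4 reaches 2.93 in MCF10DCIS.

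**Figure D5:**
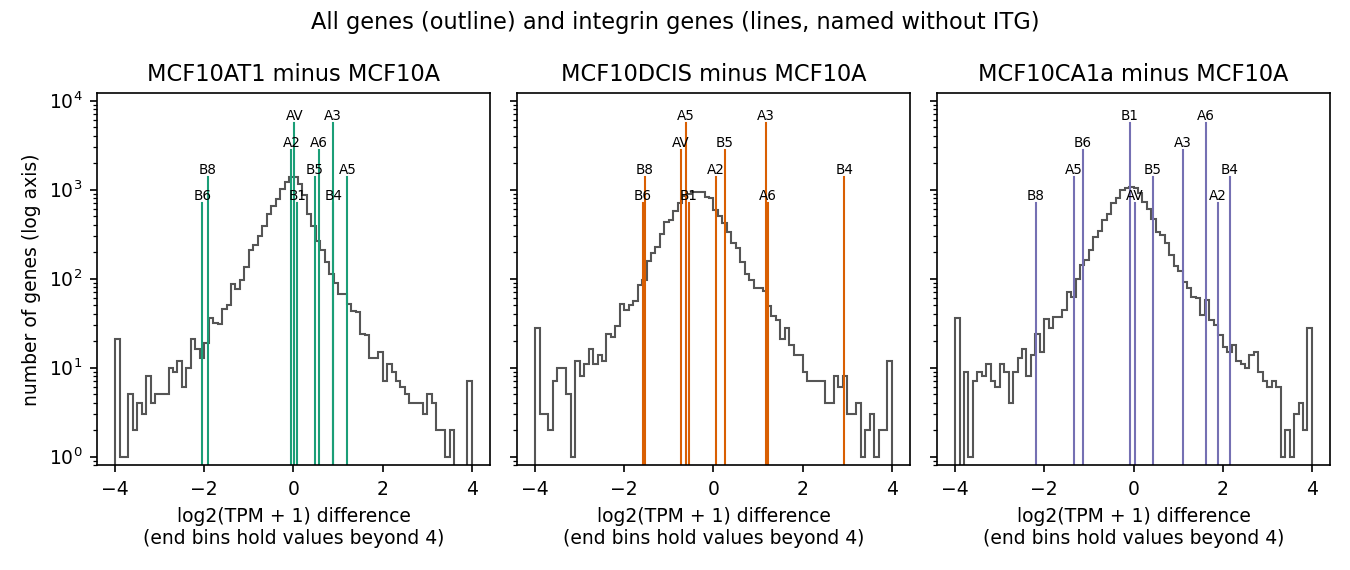
Distribution of log2(TPM + 1) differences from MCF10A over 13108 genes (outline, number of genes on a log axis, values beyond 4 placed in the end bins) with the 10 integrin genes as vertical lines whose height has no meaning. The outline of MCF10DCIS is displaced to the left, with a median of -0.38, and ITGB4 lies far to its right at 2.93.

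Of the 16 other integrin subunit genes, 4 reached 1 TPM in any line, and the rest stayed under it. ITGAE, the α subunit of the E-cadherin-binding integrin of lymphocytes, was at 10.4 TPM in MCF10A, at 13.1 in MCF10AT1, at 4.02 in MCF10DCIS and at 8.91 in MCF10CA1a. ITGA10, a collagen receptor subunit of cartilage, was at 2.87 TPM in MCF10A, at 3.22 in MCF10AT1, at 14.0 in MCF10DCIS and at 0.0918 in MCF10CA1a. Its difference from MCF10A was 1.95 in MCF10DCIS. ITGB2, the leukocyte β subunit, was 6.42, 2.05, 1.67 and 3.66 TPM in the order of the lines, and ITGA1, a second collagen receptor subunit, lay between 0.727 and 1.45 TPM. ITGAE was lower in MCF10DCIS, at -1.18, and at -0.95 on rescaled TPM it was not. The α partners of ITGB2 were near 0, with ITGAL, ITGAM and ITGAX at most 0.157 TPM and ITGAD at 0 in every line. By the rule of size, 0 of the 4 were higher and 1 lower in MCF10AT1, 1 higher and 2 lower in MCF10DCIS, and 0 higher and 1 lower in MCF10CA1a. The shares higher and lower over all genes were 3.39% and 5.87% for MCF10AT1, 3.56% and 14.8% for MCF10DCIS, and 5.97% and 7.14% for MCF10CA1a, and on rescaled TPM 5.8% and 6.66%, 7.83% and 10.4%, and 9.45% and 7.79%. ITGB3, another αv partner, was listed at 0.448 TPM at most.

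Genes for matrix ligands that integrins bind were most often higher in MCF10AT1. Of 22 measured ligand genes, 8 were higher and 0 lower there, with a median of 0.75, beside 3.39% of all genes higher. On rescaled TPM 10 were higher, beside 5.8% of all genes. Besides FN1, the latent TGF-beta binding protein gene LTBP1 was 35.9 TPM in MCF10AT1 and 1.32 in MCF10A. In MCF10DCIS 2 were higher and 2 lower, with a median of 0.041, beside 3.56% and 14.8% of all genes, or 5 and 2 on rescaled TPM, beside 7.83% and 10.4%. In MCF10CA1a 3 were higher and 2 lower, with a median of 0.21, beside 5.97% and 7.14% of all genes, or 6 and 2 on rescaled TPM, beside 9.45% and 7.79%. The laminin α chain gene LAMA4 was 53.4 TPM in MCF10CA1a, 13.9 in MCF10DCIS and 3.28 in MCF10A, and the laminin β chain gene LAMB2 was 17.8 TPM in MCF10CA1a and 48.3 in MCF10A. CCN1, a matricellular integrin ligand, was 11.5 TPM in MCF10CA1a and 3.26 in MCF10A.

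Of 31 measured genes for talins, kindlins and other proteins of adhesion complexes, 2 were higher and 0 lower in MCF10AT1, 0 higher and 8 lower in MCF10DCIS, and 2 higher and 5 lower in MCF10CA1a. In that order the share of all genes higher was 3.39%, 3.56% and 5.97%, and the share lower 5.87%, 14.8% and 7.14%. The medians were -0.025, -0.58 and -0.27, beside -0.066, -0.38 and -0.074 over all genes. On rescaled TPM 5 were lower in MCF10DCIS, with a median of -0.25, beside 10.4% and -0.094 for all genes, and 4 were higher and 4 lower in MCF10CA1a, beside 9.45% and 7.79% of all genes. TLN1, the talin that binds β subunit tails and activates integrins, was 98.4 TPM in MCF10AT1 and 48.4 in MCF10A. FLNA, a filamin that binds β tails and actin, was 2.18 TPM in MCF10DCIS and 3.47 in MCF10CA1a, against 132 in MCF10A. TNS2, a tensin, was 28.7 TPM in MCF10AT1 and 0.521 in MCF10CA1a, against 10.1 in MCF10A. The kindlin gene of epithelia, FERMT1, was 28.2 TPM in MCF10CA1a and 10.9 in MCF10A, and SRC, a kinase that signals from adhesions, was 29.3 TPM in MCF10CA1a and 7.09 in MCF10A.

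The 13 membrane partners of integrins had 0 higher and 2 lower in MCF10AT1, 2 higher and 2 lower in MCF10DCIS, and 2 higher and 1 lower in MCF10CA1a, with medians of -0.30, -0.55 and 0.068. The 2 of 13 lower in MCF10DCIS stand beside 14.8% of all genes, and the 2 in MCF10AT1 beside 5.87%. In MCF10CA1a 5.97% of all genes were higher and 7.14% lower, and in MCF10DCIS 3.56% were higher. On rescaled TPM 1 was lower in each derived line, 3 were higher in MCF10CA1a, and the medians were -0.17, -0.20 and 0.21. On that scale 6.66%, 10.4% and 7.79% of all genes were lower in the order of the lines, and 9.45% were higher in MCF10CA1a. The heparan sulfate proteoglycan gene SDC1 was 163 TPM in MCF10DCIS and 159 in MCF10CA1a, against 52.1 in MCF10A. The tetraspanin gene CD82 was 50.4 and 50.5 TPM in the same lines, against 22.4 in MCF10A, and the tetraspanin gene CD9 was 47.4 TPM in MCF10DCIS and 153 in MCF10A. CAV1, the main caveolin, was 201 TPM in MCF10CA1a and 540 in MCF10A. Of 18 trafficking and processing genes, 0 were higher and 2 lower in MCF10AT1, 1 higher and 3 lower in MCF10DCIS, and 0 higher and 1 lower in MCF10CA1a, with medians of -0.15, -0.41 and -0.13. The share of all genes lower was 5.87%, 14.8% and 7.14%, and the share higher 3.39%, 3.56% and 5.97%. On rescaled TPM 2, 2 and 0 were lower, beside 6.66%, 10.4% and 7.79% of all genes. The medians on that scale were -0.038, -0.040 and 0.014. RAB25, a GTPase that recycles α5β1 to the cell surface, was 23.5 TPM in MCF10AT1 and 109 in MCF10A. Its partner gene RAB11FIP1 was 5.20 TPM in MCF10AT1, 4.05 in MCF10DCIS and 9.46 in MCF10CA1a, against 20.3 in MCF10A. Its difference in MCF10CA1a, -1.03, was the 1 call in that line, and it was not past the rule of size on rescaled TPM, at -0.94.

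Genes with the pattern most like each of the 7 varying integrin genes were sought among 5522 genes with a mean of at least 10 TPM, by the distance between centred log2(TPM + 1) values over the 4 lines. With 4 points, many genes lie close by. ITGA6 was nearest to PLXNA1 (distance 0.15), ODC1 (0.15) and SPRED2 (0.17), and ITGA3 to ETV5 (0.15), NT5C (0.17) and HPCAL1 (0.22). ITGB4 had no neighbour so near, with IL1RAP at 0.46, UBALD2 at 0.48 and FIBCD1 at 0.66. ITGB6 was nearest to the cadherin gene CDH3 (0.19), at 165 TPM in MCF10A, at 44.7 in MCF10AT1, at 62.7 in MCF10DCIS and at 88.7 in MCF10CA1a, then to TSPAN13 (0.28) and ADGRG1 (0.33). ITGB8 was nearest to IDH2 (0.34), VEGFA (0.37) and TRPS1 (0.43), ITGA2 to EPHA2 (0.30), RDH10 (0.32) and RAI14 (0.40), and ITGA5 to MXD4 (0.53) and BIN1 (0.71). Among the integrin genes themselves, ITGAV and ITGB1 were the closest pair, at 0.22, and ITGA3 and ITGA6 were 0.60 apart, ITGB6 and ITGB8 0.96, and ITGA6 and ITGB4 1.29.

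The levels of neighbouring genes moved with some members, given here on rescaled TPM. Over 93 genes within 5 Mb of ITGB4, the median difference from MCF10A was 0.069 for MCF10AT1, 0.50 for MCF10DCIS and 0.36 for MCF10CA1a, where ITGB4 itself differed by 1.03, 3.31 and 2.32. In MCF10DCIS 18 of the 93 were higher and 5 lower, where 7.83% of all genes were higher and 10.4% lower. Over 80 genes within 5 Mb of ITGA3 the medians were 0.075, 0.41 and 0.24, beside 1.02, 1.55 and 1.25 for ITGA3. The 753 genes of chromosome 17, which carries ITGB4 and ITGA3, had medians of 0.12, 0.21 and 0.25. Genes of chromosome 7, which carries ITGB8, had medians of -0.46, -0.66 and -0.51 over 626 genes. The 31 genes within 5 Mb of ITGB8 had medians of -0.39, -0.53 and -0.49 with 10, 10 and 11 lower, and ITGB8 differed by -1.84, -1.21 and -2.12. Over all genes 6.66%, 10.4% and 7.79% were lower. Near ITGB5, 64 genes had medians of 0.17, 0.44 and 0.71, and ITGB5 differed by 0.60, 0.63 and 0.58, so in MCF10CA1a it was below its neighbours' median. The 40 genes near ITGA6 had medians of 0.10, -0.11 and -0.015, and the 20 near ITGB6 had -0.25, -0.40 and -0.077. The part of these neighbourhoods in the members' differences was not tested.

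How strand was used in counting is not given in the sources used here, so reads of genes that overlap on opposite strands may not be told apart. GALK1 shares 6225 bases with ITGB4 on the opposite strand and was at 8.01 TPM in MCF10A, at 6.64 in MCF10AT1, at 3.30 in MCF10DCIS and at 3.23 in MCF10CA1a, in each line far below ITGB4. No other annotated overlapping gene exceeded 0.754 TPM in any line. ITGB1P1, a pseudogene copy of ITGB1, was below 1 TPM in each line.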

How the data were processed

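RNA from 12 libraries, 3 for each of 4 lines, was measured by stranded RNA-seq, per the labels. The authors deposited TPM values, 1 column per line, each their mean over the libraries of that line per the file headers. STAR, edgeR and hg38 are named in the submitters' processing notes; for versions, the quantification program and the annotation, nothing is stated there. Nothing says whether libraries came from separate cultures. Samples were grouped by title, and each column mapped to a line by name.

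With 1 mean per line no test was possible. Differences of log2(TPM + 1) were called at 1 or more among 13108 genes with at least 1 TPM in a line. Names of the 4 scalings are deposited, rescaled, median-of-ratios and quantile. All 10 members are named. Of each list, the 2 most raised and 2 most lowered genes with at least 10 TPM in the higher line could be named, with other integrin genes at 1 TPM or more. Outside this rule, values of further integrin genes, laminin chains, hemidesmosome partners, neighbours and overlapping genes describe those groups. Members and lists were chosen with earlier results of these data known. The code for the rule of size and the scalings was checked on MCF10A values multiplied by known factors. Those factors carried no noise, so the check gives no error rate. Python 3.11.15, pandas 2.3.3, numpy 2.4.6 and matplotlib 3.10.9 were used. Positions are from GENCODE 29, and promoter bases from RefSeq. Values of some genes that the rules would name are not reported here.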

Additional observations from a re-analysis of the deposited data

How the results depend on the processing

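The values are means with no error, so depth and library spread limit every statement, and a fixed rule of size cannot tell a difference from noise. No paired analysis was possible because the columns carry no replicate numbers, and leaving out each library was not possible for the same reason. Of 240 differences of single members recomputed with a pseudocount of 0.1 or another scaling, 219 kept direction and side of the rule of size, 8 moved past it, 0 called differences fell below it or turned round, and 13 uncalled small differences changed sign. The causes of the changes below were not tested.

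For MCF10AT1 against MCF10A the count of higher members was 1, but 3 with rescaled TPM, 2 with quantile normalization and 3 with a 1.5-fold rule of size. That smaller rule gave 4 lower members in MCF10DCIS against MCF10A, 2 higher and 3 lower in MCF10DCIS against MCF10AT1, and 2 higher and 3 lower in MCF10CA1a against MCF10DCIS. With median-of-ratios scaling 2 members were higher in MCF10DCIS against MCF10AT1, and 2 were lower in MCF10CA1a against MCF10DCIS, as with quantile normalization (2).

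In lists against MCF10A, rescaled, median-of-ratios and quantile values changed these counts in MCF10DCIS: other integrin genes lower 1, 1 and 1; ligands higher 5, 6 and 5; hemidesmosome partners higher 1, 1 and 1; membrane partners lower 1, 1 and 1; adhesion-complex genes lower 5, 5 and 5. Median-of-ratios and quantile values gave ligands lower 1 and 1 and trafficking genes lower 1 and 1, and median-of-ratios gave 1 adhesion-complex gene higher. In MCF10CA1a the 3 scalings gave 6, 6 and 6 ligands higher and 0, 0 and 0 trafficking genes lower; a pseudocount of 0.1 gave 5 ligands higher and 4 lower; rescaled TPM gave 4 adhesion-complex genes higher. In MCF10AT1 rescaled and quantile values each gave 1 membrane partner lower (1 and 1), and the pseudocount of 0.1 gave 1 adhesion-complex gene lower.

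Without a filter on low values the share of all genes called higher and lower was 0.747% and 1.30% in MCF10AT1, 0.786% and 3.26% in MCF10DCIS and 1.32% and 1.58% in MCF10CA1a, each against MCF10A. It was 0.713% and 1.66% in MCF10DCIS and 1.32% and 0.875% in MCF10CA1a, each against MCF10AT1, and 1.33% and 0.298% in MCF10CA1a against MCF10DCIS. More genes enter that denominator. A filter of 5 TPM kept each share within 1.5 times. Shares over all genes were computed only on deposited and rescaled TPM with the rule of size of 1. Counts with the 1.5-fold rule, median-of-ratios, quantile values or the pseudocount of 0.1 therefore have no such share beside them.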
